A study of Homo sapiens with 5 samples.

Results

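Transcripts of the spindle assembly checkpoint and of the activators of the anaphase-promoting complex (APC/C) were examined in GFP-SAS, a squamous cell carcinoma line of the human tongue that carries green fluorescent protein. The genes were taken by name from a list of 10: BUB1, BUB1B, BUB3, MAD1L1, MAD2L1, TTK, CDC20, UBE2C, PTTG1 and FZR1. A gene counted as measured where a probe set named it and no other gene, which held for 9 of the 10, with 23 probe sets, among 18239 genes in all. PTTG1 was left out by that rule. Treatment lasted 24 h in every group. The groups were DMSO as vehicle, MLN8237 at 100 nM (alisertib, which inhibits the Aurora A kinase), siNT as a control siRNA without a target, and siAURKA-1 or siAURKA-2, each at 10 nM, which target the AURKA mRNA. All groups are the same cell line, and the labels leave the dose of siNT unclear.

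A single Affymetrix GeneAtlas array was run for each of the 5 groups, so no difference has a replicate check and none was tested. The deposited values, taken as log2 signals because the base is not stated, are centred per probe set. A value of 0 therefore marks the array at the middle of the 5, the values compare arrays, and no gene's level can be set against another's. Differences below are log2 differences between 2 arrays, where 0.585 is 1.5-fold and 0.263 is 1.2-fold. The value 0 was read on 2 or more arrays by 11 of the 23 probe sets (47.8%, against 51.8% of the 45253 probe sets naming 1 gene), so a difference of exactly 0 is a tie that the table often holds. The target itself, AURKA (1 probe set), lay 10.3-fold below siNT with siAURKA-1 and 6.24-fold below it with siAURKA-2.

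The spindle checkpoint delays anaphase until every chromosome is attached to the spindle. At unattached kinetochores the kinase TTK (also called MPS1) starts the signal, BUB1 and BUB3 are recruited, and MAD1L1 presents a template on which MAD2L1 changes shape and binds CDC20. MAD2L1, BUB1B (BUBR1), BUB3 and CDC20 then form the mitotic checkpoint complex, which inhibits the APC/C, a ubiquitin ligase. Once the checkpoint is satisfied, the APC/C with CDC20 and the ubiquitin-conjugating enzyme UBE2C marks securin (PTTG1) and cyclin B for destruction, and FZR1 (CDH1) takes over from CDC20 as activator late in mitosis and in G1. Aurora A is itself a substrate of the APC/C with FZR1. Many of these transcripts are most abundant in G2 and mitosis in dividing cells. In bulk RNA, fewer cells in a cell cycle phase and less RNA per cell cannot be told apart.

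With siAURKA-1, checkpoint and activator transcripts lay below siNT, by modest amounts. CDC20 (-0.62), TTK (-0.55), BUB1 (-0.51), MAD2L1 (-0.50) and UBE2C (-0.39) lay furthest below, BUB1B (-0.26) and BUB3 (-0.26) followed, FZR1 was level (-0.01) and MAD1L1 lay above siNT (0.16). The median over the 9 genes was -0.39, and that of all genes was 0.00. Of the 9, 8 lay below siNT by any amount, against 42.2% of all genes, and 1 above it (47.2%). FZR1 is counted among the 8 on a difference of only -0.01. At 1.2-fold, 5 of 9 were lower, against 11.8% of all genes, and none was higher (background 10.5%). At 1.5-fold, only CDC20 was lower, against 4.48% of all genes, and none was higher (2.57%). None was 2-fold lower (1.38%). TTK (1.46-fold) lay just short of 1.5-fold, and BUB1B and BUB3 just short of 1.2-fold.

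**Figure D1:**
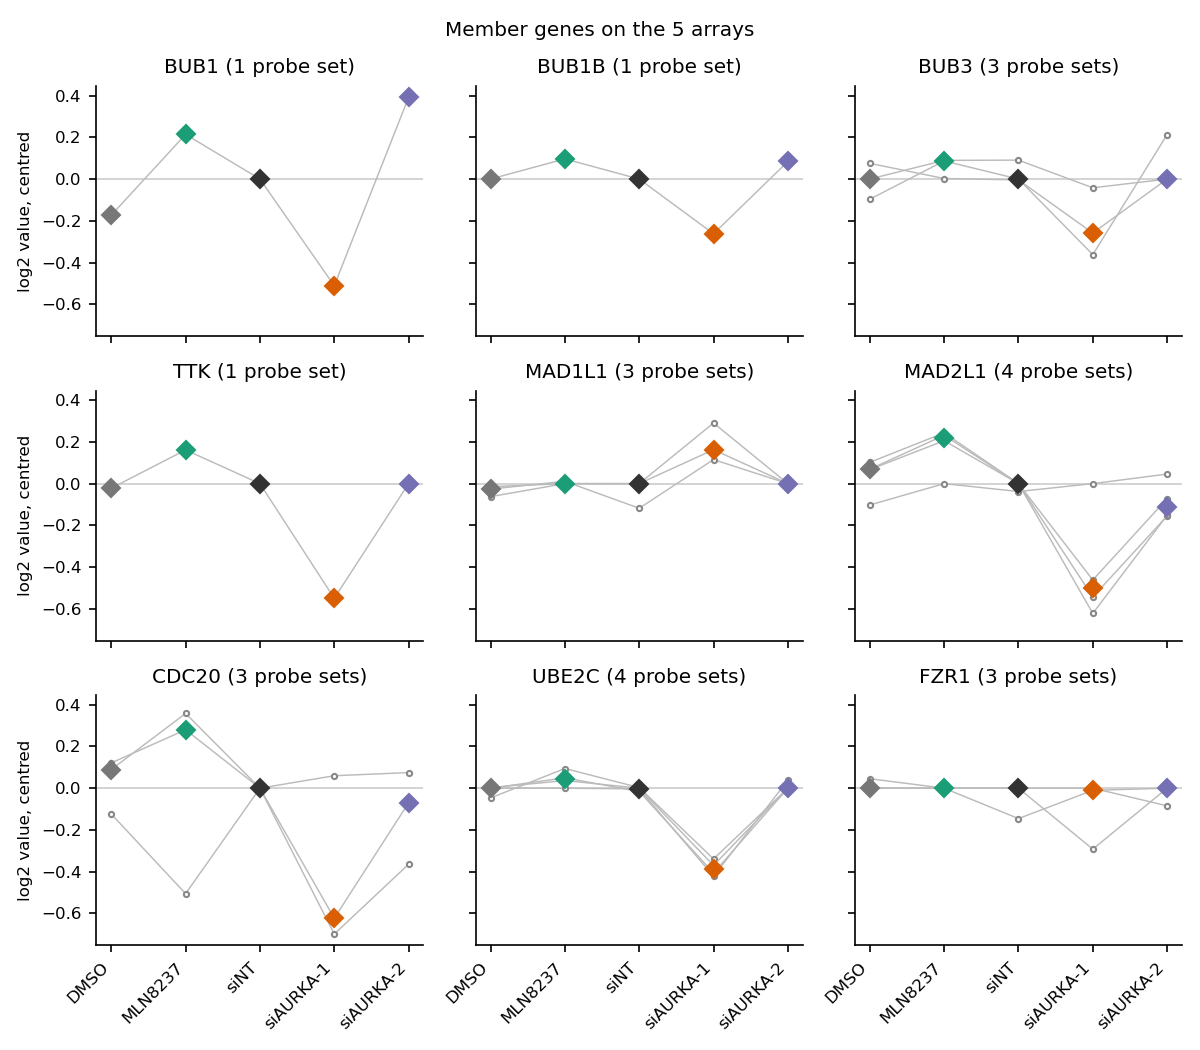
Centred log2 value (vertical axis) of each measured gene on the 5 arrays (horizontal axis); diamonds are the gene's value, the median of its probe sets, and open circles joined by lines are single probe sets. The siAURKA-1 diamond is the lowest in 8 of 9 panels, in FZR1 with a value of only -0.01. In CDC20 and MAD2L1, 1 probe set each runs apart from the others.

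The APC/C activator CDC20, which binds substrates as well as the checkpoint proteins, gave 0.089 for DMSO, 0.28 for MLN8237, 0.00 for siNT, -0.62 for siAURKA-1 and -0.07 for siAURKA-2. The siAURKA-1 array was the low one and MLN8237 the high one, while the rest lay within a narrow band. The siAURKA-1 value was 1.54-fold below siNT and 1.64-fold below DMSO, and 717 of 18239 genes (3.93%) lay further below siNT. The 3 probe sets did not share this pattern. With siAURKA-1 they differed from siNT by -0.62, -0.70 and 0.060, and the probe set that did not follow the others also read -0.38 with MLN8237 against DMSO, where the others read 0.27 and 0.16. Taking the mean of the probe sets in place of their median gave -0.42 for siAURKA-1 minus siNT, which is short of 1.5-fold.

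UBE2C, the E2 enzyme that primes ubiquitin chains for the APC/C, had probe sets that followed one another closely in the siRNA comparisons. It gave 0.0001 for DMSO, 0.043 for MLN8237, -0.0017 for siNT, -0.39 for siAURKA-1 and 0.00 for siAURKA-2. Only the siAURKA-1 array stood away from the rest. The 4 probe sets ranged from -0.42 to -0.34 for siAURKA-1 minus siNT and from -0.0029 to 0.041 for siAURKA-2 minus siNT. FZR1, the activator that follows CDC20, read 0.00 on 4 arrays and -0.01 on the siAURKA-1 array. That median covers probe sets that disagreed, which gave -0.29, 0.14 and 0.00 for siAURKA-1 minus siNT.

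Among the kinases and scaffolds at the kinetochore, TTK gave -0.022 for DMSO, 0.16 for MLN8237, 0.00 for siNT, -0.55 for siAURKA-1 and 0.00 for siAURKA-2. BUB1, the kinase that marks the centromere for shugoshin, gave -0.17, 0.21, 0.00, -0.51 and 0.39 on the same arrays in that order. BUB1B, the pseudokinase that holds CDC20 in the checkpoint complex, gave 0.00, 0.096, 0.00, -0.26 and 0.084. These genes were all lowest with siAURKA-1, and BUB1 differed from TTK in being highest with siAURKA-2. Each has 1 probe set, so none has a second reading on these arrays. BUB3, the partner protein that brings BUB1 and BUB1B to kinetochores, gave 0.00 for DMSO, 0.087 for MLN8237, 0.00 for siNT, -0.26 for siAURKA-1 and 0.00 for siAURKA-2. Its 3 probe sets all lay below siNT with siAURKA-1, by -0.36, -0.25 and -0.13. They did not share a direction for MLN8237 minus DMSO, where they gave 0.18, -0.07 and 0.09.

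The partners MAD1L1 and MAD2L1 lay on opposite sides of siNT with siAURKA-1. MAD2L1 gave 0.068 for DMSO, 0.22 for MLN8237, 0.00 for siNT, -0.50 for siAURKA-1 and -0.11 for siAURKA-2. MAD1L1 gave -0.026, 0.00, 0.00, 0.16 and 0.00 on the same arrays. It was the only measured member whose highest array was siAURKA-1, and its 3 probe sets agreed in that direction (0.29, 0.16 and 0.23 above siNT). Of the 4 MAD2L1 probe sets, 3 gave -0.54, -0.62 and -0.46 for siAURKA-1 minus siNT and the fourth gave 0.038.

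Securin, the inhibitor of separase encoded by PTTG1, could not be read alone. The 2 probe sets that name PTTG1 also name its near-identical relatives, 1 of them PTTG3P and the other PTTG2 and PTTG3P, so their signal cannot be assigned to PTTG1. They differed from siNT by -0.24 and -0.10 with siAURKA-1, by 0.062 and -0.0009 with siAURKA-2, and from DMSO by 0.032 and 0.00 with MLN8237.

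Over all members, 16 of the 23 probe sets lay below siNT with siAURKA-1 and 6 above it, against 42.8% and 46.4% of all probe sets naming 1 gene. Of the 6 above, 3 belong to MAD1L1 and 1 each to MAD2L1, CDC20 and FZR1. For the 6 genes with several probe sets, the range between them had a median of 0.33, against 0.23 for the 11822 such genes in the table. Disagreement between probe sets was thus as large as many of the differences between arrays.

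**Figure D2:**
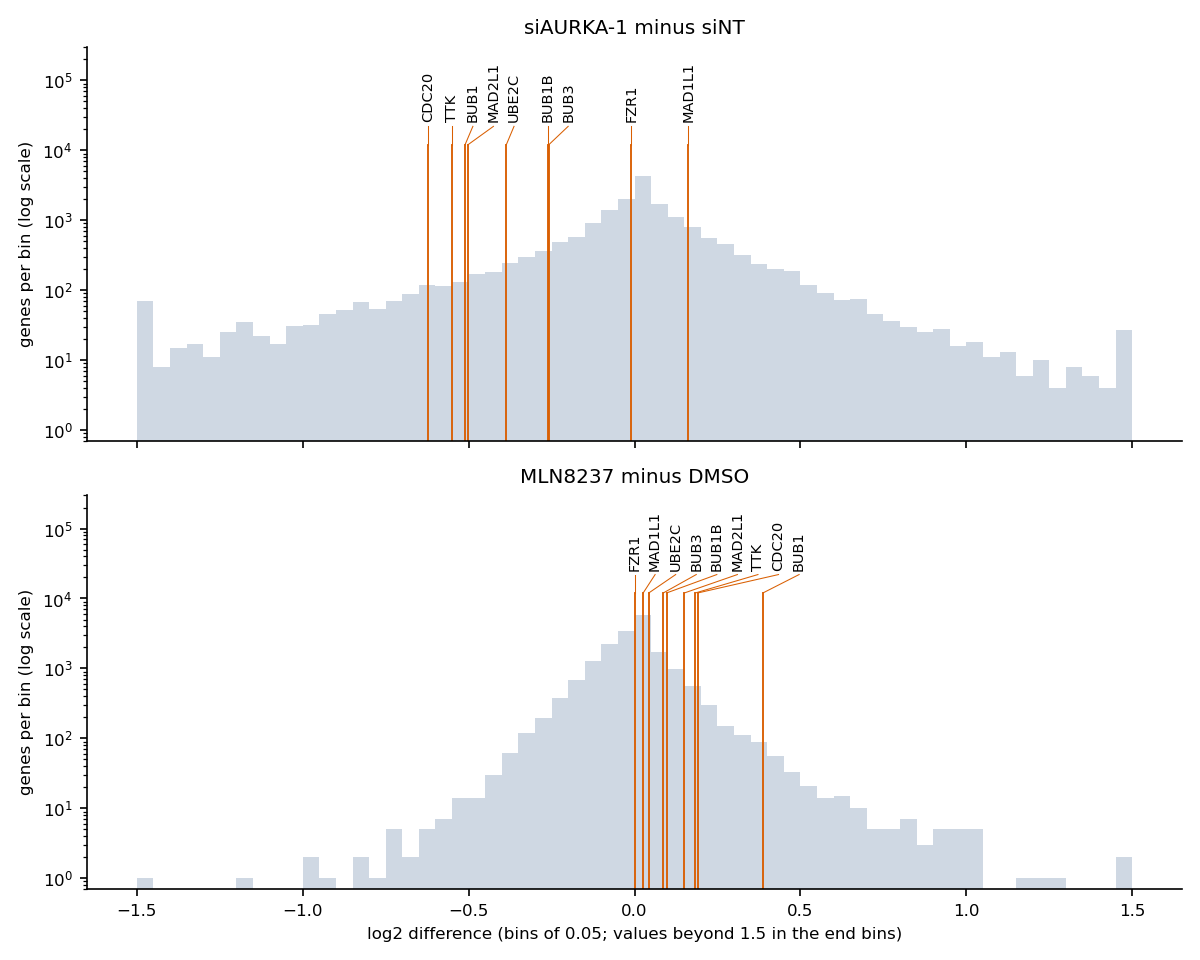
Number of genes per bin of 0.05 (log axis) against the log2 difference for siAURKA-1 minus siNT (upper) and MLN8237 minus DMSO (lower), with each measured member marked by a line. In the upper panel 7 of the lines lie between -0.62 and -0.26, and with MLN8237 8 lie to the right of zero.

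Promoter sequence was set beside these values because most members lay below siNT together with siAURKA-1. Many mitotic promoters carry a cell cycle genes homology region (CHR), through which the DREAM and MuvB complexes act, often near CCAAT boxes bound by NF-Y. RefSeq promoters of GRCh38.p14, running from 250 bases before the start of transcription to 50 after it, were searched on both strands for the CHR-type letters TTTGAA, its variant TTCGAA and its variant TTTAAA, and for CCAAT. Promoters were given for 7 of the 10 genes: BUB1, BUB1B, MAD1L1, MAD2L1, CDC20, PTTG1 and FZR1. Their 9 promoters include 2 each for PTTG1 and FZR1. Of the 9, 7 held CHR-type letters (25.1% of all 35116 promoters) and 5 held CCAAT (34.6%). The PTTG1 promoters overlap and share their matches, and the second FZR1 promoter held no match. Windows of 30 bases around a CHR-type match follow, 5′ to 3′, with the match in capitals.
BUB1, chr2:110678045-110678074, minus strand: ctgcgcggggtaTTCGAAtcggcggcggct
BUB1B, chr15:40161034-40161063, plus strand: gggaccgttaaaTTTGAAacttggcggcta
MAD2L1, chr4:120066807-120066836, minus strand: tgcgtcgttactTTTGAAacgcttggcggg
CDC20, chr1:43358904-43358933, plus strand: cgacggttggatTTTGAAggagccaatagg
PTTG1, chr5:160421814-160421843, plus strand: cgcgagttgtggTTTAAAccaggagtgcgc
FZR1, chr19:3506073-3506102, plus strand: ttcctgtattgaTTTGAAtcgcgggagacg
The matches start at base 2 after the start of transcription in BUB1 and base 25 in MAD2L1, and at bases -23, -65, -29 and -226, counted back from it, in BUB1B, CDC20, PTTG1 and FZR1. MAD1L1, the member that lay above siNT with siAURKA-1, held none of these letters in its window. FZR1, which was level, held a match. No link between matches and direction was tested, and BUB3, TTK and UBE2C, which lay below siNT, had no promoter given. For PTTG1 and FZR1 the first promoter is shown. For CDC20 the match nearer to the gene is shown, and another, on the opposite strand, starts at base -178. In PTTG1, CCAAT matches on opposite strands overlap. A match is a description of the letters and not evidence of binding.

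The 250 bases before the start of transcription are given for the member furthest below siNT and for the one above it, with CHR-type letters and CCAAT in capitals on either strand. In CDC20 the pair nearest to the gene has CCAAT just downstream of TTTGAA, and no 2 of its matches overlap.
CDC20, chr1:43358731-43358980, plus strand: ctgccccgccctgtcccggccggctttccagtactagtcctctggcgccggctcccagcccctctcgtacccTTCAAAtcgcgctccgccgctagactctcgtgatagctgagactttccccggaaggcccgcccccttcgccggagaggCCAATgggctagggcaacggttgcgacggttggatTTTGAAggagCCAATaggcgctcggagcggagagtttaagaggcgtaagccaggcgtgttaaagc
MAD1L1, chr7:2232946-2233195, minus strand: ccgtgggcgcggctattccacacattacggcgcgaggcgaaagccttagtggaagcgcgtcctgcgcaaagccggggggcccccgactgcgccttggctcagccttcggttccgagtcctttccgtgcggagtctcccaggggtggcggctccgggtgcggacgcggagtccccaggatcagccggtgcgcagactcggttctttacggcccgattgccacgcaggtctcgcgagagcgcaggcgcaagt

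With siAURKA-2, which lowered the same target, these genes were near siNT. The median over the 9 was 0.00, with 2 genes below siNT (42.3% of all genes), 3 above (45.9%) and 4 tied. A tie of medians can cover probe sets that disagree. Those of BUB3 ran from -0.09 to 0.21, and those of FZR1 from -0.08 to 0.15. BUB1 (0.39) was the only member at least 1.2-fold higher, against 8.71% of all genes, and none was at least 1.2-fold lower (10.2%) or 1.5-fold lower (3.11%). MAD2L1 (-0.11) and CDC20 (-0.07) lay slightly below. Of the probe sets 8 were lower and 10 higher, against 43.7% and 44.8% of all. The siRNA comparisons share the siNT array, and the comparisons of MLN8237 and of siNT with DMSO share the DMSO array, so such values are given side by side and not as independent readings.

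The siRNAs were also compared with each other, which uses no control array. Every comparison of siAURKA-1, with siNT, DMSO or siAURKA-2, uses the same single siAURKA-1 array, so these are not independent readings. Of the 9 genes, 8 lay lower on the siAURKA-1 array (44.5% of all genes), 6 by at least 1.2-fold (11.6%) and 1, BUB1, by at least 1.5-fold (3.99%), and none by 2-fold (1.19%). FZR1 is again among the 8 on a difference of only -0.01. BUB1 differed by -0.90, or 1.87-fold, CDC20 and TTK by -0.55 each, MAD2L1 and UBE2C by -0.39 each and BUB1B by -0.35. The median was -0.39. Of the 23 probe sets 19 were lower, against 44.0% of all, including all 3 of CDC20 and all 4 of MAD2L1. For CDC20 the probe sets themselves gave -0.55, -0.33 and -0.015, so its value stands at the far end of them. The mean of its probe sets gave -0.30, and the median of their own differences -0.33.

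**Figure D3:**
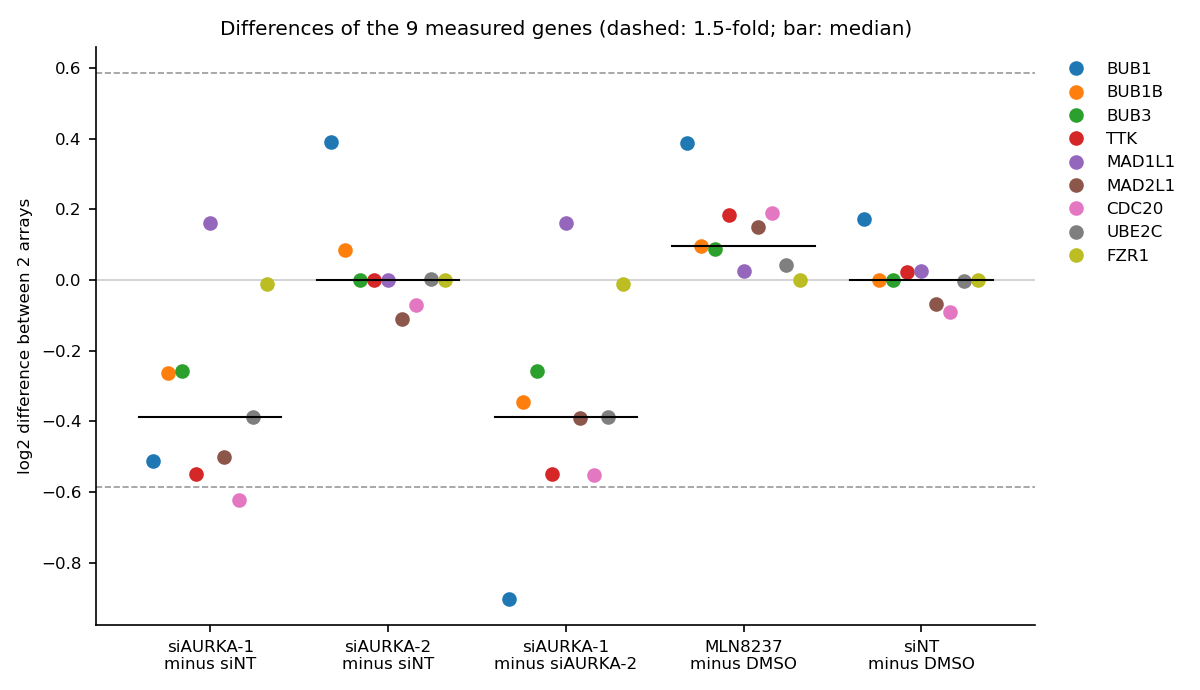
Log2 difference between 2 arrays (vertical axis) of the 9 measured genes for 5 comparisons (horizontal axis), with the median as a bar and 1.5-fold as dashed lines. BUB1 lies at -0.51 and 0.39 for the siRNAs against siNT, and all 9 genes are at or above 0 for MLN8237 minus DMSO.

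MLN8237, which acts on the kinase protein, gave small positive differences. Relative to DMSO, 8 of 9 genes were higher (38.7% of all genes), none was lower (46.1%) and FZR1 was tied, with a median of 0.10. Among the 8, MAD1L1 (0.026) and UBE2C (0.043) were below 0.0703, the median absolute difference between the control arrays over all genes. BUB1 (0.39, 1.31-fold) was the only member at least 1.2-fold higher, against 2.69% of all genes, and 202 genes (1.11%) lay higher than it. CDC20 (0.19), TTK (0.18) and MAD2L1 (0.15) came next, but the mean of the CDC20 probe sets gave 0.015. None of the 9 reached 1.5-fold (0.367% of all genes). Of the probe sets 17 were higher and 4 lower, against 40.3% and 44.8% of all. The 4 MAD2L1 probe sets agreed, at 0.10 to 0.16, and those of CDC20 did not. Set against siNT, 7 genes were higher (35.2% of all genes), 2 tied and none lower (50.9%), with CDC20 at 0.28, MAD2L1 at 0.22 and BUB1 at 0.21. Which member passed 1.2-fold thus depended on the control array, since against siNT BUB1 fell short of it and CDC20 passed it. By array, MLN8237 was the highest of the 5 for 6 of the 9 genes, against 8.55% of all genes, and siAURKA-1 the lowest for 8, against 20.9%. FZR1 is among the 8 on a value of only -0.01. CDC20 is among the 6, although 1 of its probe sets was lowest with MLN8237 (-0.51). These counts by array were chosen after the values were seen.

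The control arrays were close for these genes, as they were for most genes. The median of siNT minus DMSO was 0.00 both over the 9 and over all genes. Of the 9, 3 genes were lower (39.6% of all genes) and 3 higher (47.6%). BUB1 (0.17) and CDC20 (-0.09) were furthest apart, and no member reached 1.2-fold, which 7.88% of all genes did upwards and 4.5% downwards. Against DMSO in place of siNT, the same siAURKA-1 array had 8 of 9 genes lower (38.9% of all genes) with a median of -0.34. FZR1 again differed by only -0.01. The siAURKA-2 array gave a median of 0.00. Against DMSO, BUB1 was at -0.34 with siAURKA-1 and at 0.56 with siAURKA-2.

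Other genes of the pathway were read from lists of the checkpoint's partners, the APC/C subunits, regulators and substrates. Of 9 checkpoint partners, 3 were at least 1.5-fold below siNT with siAURKA-1 (4.48% of all genes) and none above (2.57%), with a median of -0.16. These included ZWILCH (-0.95) and KNTC1 (-0.94, 1 probe set), subunits of the complex that brings MAD1 and dynein to kinetochores. TRIP13 (-0.67), the ATPase that takes the checkpoint complex apart, was the other. On the siAURKA-2 array 3 partners were at least 1.5-fold lower too (3.11% of all genes), ZWILCH (-0.69), KNTC1 (-0.59) and ZWINT (-1.79, named after its values were seen), and the list's median was -0.23 where the members' was 0.00.

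The 14 APC/C subunits were nearly level, with medians of -0.05, 0.02 and -0.02 for siAURKA-1, siAURKA-2 and MLN8237 against their controls. With siAURKA-1 2 of them were at least 1.5-fold lower (4.48% of all genes), ANAPC1, the largest subunit (-1.18, 1 probe set), and ANAPC16 (-0.62), and CDC23 followed (-0.42). ANAPC1 was close to siNT with siAURKA-2 (-0.08).

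Genes on the regulator list were lower with siAURKA-1. Of 5 listed, 4 were measured, all 4 lay below siNT (42.2% of all genes) and 2 by at least 1.5-fold (4.48%): FBXO5 (EMI1), an inhibitor of the APC/C (-0.97), and its relative FBXO43 (-0.71). UBE2S, which extends the ubiquitin chains that UBE2C starts, gave -0.38. FBXO5, FBXO43 and UBE2S have 1 probe set each. The other gene measured, ESPL1 (-0.26), encodes separase, which securin inhibits, and is not itself a regulator of the APC/C. With siAURKA-2, FBXO5, FBXO43 and UBE2S gave -0.39, 0.08 and -0.11, and with MLN8237 against DMSO -0.18, 0.15 and 0.24.

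Most transcripts of APC/C substrates lay below siNT. Without AURKA, the siRNAs' own target, 11 of the 13 others were lower on the siAURKA-1 array (median -0.41) and 9 on the siAURKA-2 array (median -0.16), with 6 and 3 of them at least 1.5-fold lower. Of all genes, 42.2% and 42.3% were lower on these arrays, and 4.48% and 3.11% by at least 1.5-fold. Above siNT lay 1 of the 13 (47.2% of all genes) and 4 (45.9%). ANLN, named after its values were seen, was the highest with siAURKA-2 (0.61) but gave -0.41 with siAURKA-1. Its 4 probe sets agreed in direction in both comparisons. GMNN, encoding the licensing inhibitor geminin, gave -0.98 and -0.16, and AURKB, the kinase of the chromosomal passenger complex, -0.95 and -0.39. GMNN and AURKB have 1 probe set each. With MLN8237 against DMSO the median of the 13 was 0.01, with 7 higher (38.7% of all genes) and 6 lower (46.1%). GMNN was the lowest (-0.30), ANLN the highest (0.41), and AURKB gave -0.07. AURKA, left out of the 13 and read by 1 probe set, gave 0.49.

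**Figure D4:**
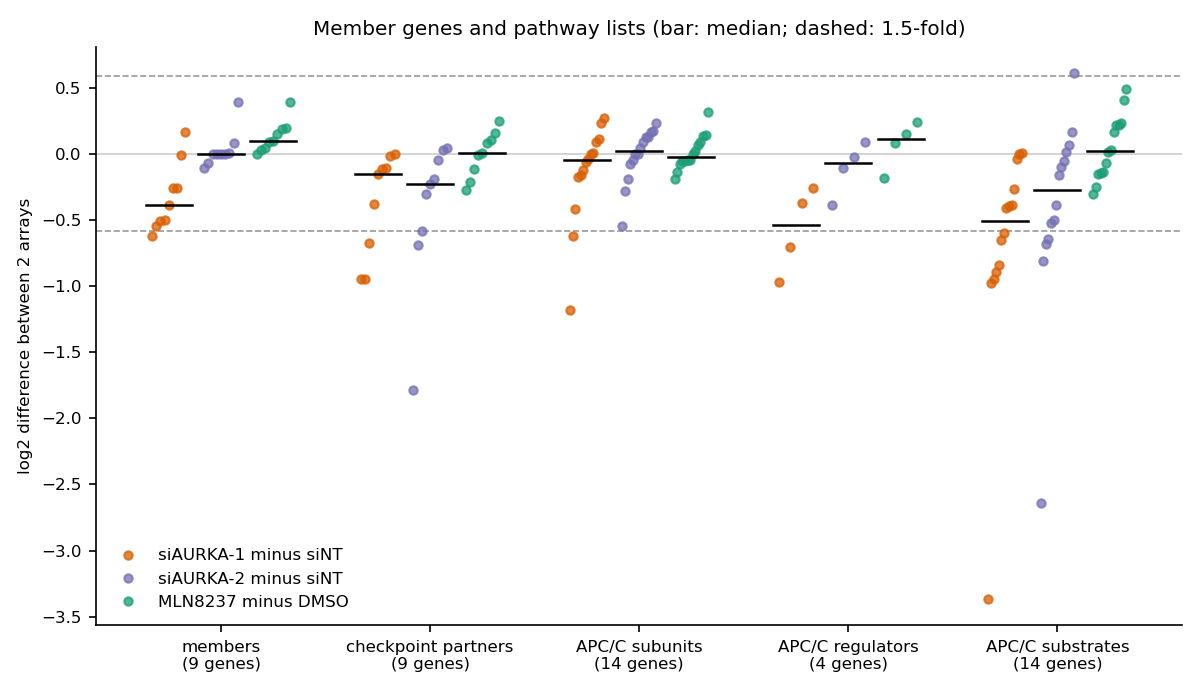
Log2 difference between 2 arrays (vertical axis) for the members and the 4 pathway lists (horizontal axis), 1 point per gene, with medians as bars and 1.5-fold as dashed lines. The members' medians are -0.39, 0.00 and 0.10, and the lowest points among the substrates are AURKA at -3.36 and -2.64.

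The genes whose values over the 5 arrays were most like a member's were sought for CDC20, BUB1 and MAD2L1, the 3 of widest range (0.90, 0.90 and 0.72). With 5 arrays many genes come close to any pattern. For CDC20 the nearest were CDKN3, SRBD1, HYLS1, TESMIN and TCEA1, at root mean square differences of 0.038 to 0.064, and MAD2L1 ranked 6 among all genes and TTK 26. For MAD2L1 they were RPS19BP1, SRBD1, PPP1CC, ATP8A2 and EIF5 (0.040 to 0.057), with CDC20 at rank 15 and TTK at 29. For BUB1 they were GPSM2, DENND10, BMAL2, CENPA and TMEM200A (0.057 to 0.074), and the nearest member, TTK, was at rank 237. The order of the arrays in BUB1 was thus unlike that of CDC20 and MAD2L1, with siAURKA-2 the highest array in BUB1 and the second lowest in the others.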

How the data were processed

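One deposited table of 49386 probe sets by 5 arrays was analysed. The submitters' processing notes name RMA (background correction, quantile normalization, median polish). Its software and version, and the base of the logarithm, are details not given in the sources used here. The deposited values are taken as log2 and had been centred by the authors, since in all 49386 rows the 5 arrays have a median of exactly 0. No expression level remains, so no filter on low signal could be set, and the labelled squamous cell type could not be checked against its markers.

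A platform annotation named the genes, updated by Entrez number to GRCh38.p14 RefSeq symbols. Probe sets naming a gene alone were summarised by their median. A difference between arrays was called at 1.5-fold, and counts at 1.2-fold and 2-fold stand beside it, and values closer than 1e-09 counted as equal. With 1 array per group there was no test, no p-value and no error estimate, and for arrays their number limits the precision. Of each pathway list, the 3 genes with the largest absolute siAURKA-1 minus siNT difference are named. Likeness of pattern was the root mean square difference over the 5 arrays, each gene centred on its mean, for the 3 members of widest range. The members and lists were chosen with earlier results of these data known. The counting at 1.5-fold was tested on simulated data, with planted differences beyond 1.5-fold shared by all probe sets of a gene. Smaller differences and probe sets that disagree were not simulated. Python 3.11.15, pandas 2.3.3, numpy 2.4.6 and matplotlib 3.10.9 were used.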

Additional observations from a re-analysis of the deposited data

Results flagged for a closer look

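BUB1 was the only member for which the siRNAs lay on opposite sides of the siNT array, each by at least 1.2-fold. The share of all genes that do so was not counted. Taken singly, 11.8% of all genes lay that far below siNT with siAURKA-1, and 8.71% that far above it with siAURKA-2. The siAURKA-1 array was below siNT (log2 difference -0.51) and the siAURKA-2 array above it (0.39), and the siRNA arrays differed from each other by -0.90. Each siRNA has 1 array and BUB1 has 1 probe set, so this difference was not tested and has no second reading. ANLN, a substrate gene and not a member, also lay on opposite sides of siNT, at -0.41 with siAURKA-1 and 0.61 with siAURKA-2.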

How the results depend on the processing

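The median over the member genes stayed within 0.0703, the median absolute difference between the control arrays over all genes, under every alternative but 1: with the probe set of widest range per gene, siAURKA-1 minus siAURKA-2 gave -0.47 in place of -0.39. Counts at a fold depended on the fold. For siAURKA-1 minus siNT, 1 gene at least 1.5-fold lower became 0 at 2-fold and 5 at 1.2-fold, 0 with the mean of probe sets, and 2 with the probe set of widest range. Leaving out CDC20, an alternative added after the data were seen, makes that count 0 by construction, since CDC20 is the gene counted, and it moved the median to -0.32. For siAURKA-1 minus siAURKA-2, 1 lower gene became 0 at 2-fold and 6 at 1.2-fold. At 1.2-fold, 1 gene was higher with siAURKA-2 than with siNT and 1 with MLN8237 than with DMSO, in place of 0 each. With the mean of probe sets CDC20 gave -0.42 with siAURKA-1, short of 1.5-fold, and with its probe set of widest range MAD2L1 gave -0.62. Of 279 values of single genes under alternatives, 277 kept their side of 1.5-fold and 4 had the opposite sign, each within 0.0429 of zero before and after. Many of the 279 could not change, so these counts are not a measure of stability. Centring the arrays, or adding probe sets that name several genes, left every measured gene's value as it was. BUB1, BUB1B and TTK have 1 probe set each, so no probe set rule could move them. The alternatives were the fold, the probe set rule, the centring of arrays and the control array. A median of the probe sets' own differences, also added later, changed no count or call at 1.5-fold. Under it FZR1 gave 0.00 for siAURKA-1 minus siNT in place of -0.01, so it no longer lay below siNT. No paired analysis was possible because each group has 1 array.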

Other observations

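Outside the naming rule and chosen after its values were seen, ZWINT, a kinetochore protein that binds KNL1, was the pathway gene other than AURKA furthest from siNT on the siAURKA-2 array. Its values were 0.22 for DMSO, 0.0042 for MLN8237, 0.029 for siNT, -0.35 for siAURKA-1 and -1.76 for siAURKA-2. The siAURKA-2 array therefore lay -1.79 from siNT and siAURKA-1 lay -0.38, the reverse of the order seen for most member genes. Its 2 probe sets agreed in direction.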
